A study of Mus musculus with 4 samples.

Results

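Broad CTCF regions were defined by peak width in 4 lists of CTCF peaks from mouse embryos. In each list, rows with the same interval were collapsed to 1 peak, peaks of at least 1000 bases on chromosomes 1 to 19 were kept, and those sharing at least 1 base were merged across lists. This gave 763 regions, out of 118663 union regions formed by merging all peaks of the 4 lists. A region was called broad in a tissue whose own peak reached 1000 bases, narrow where only shorter peaks touched it, and absent where no peak did. Width chose the regions, so every count of broad peaks is a description of that choice and carries no test.

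The lists come from ChIP-seq, in which DNA bound by CTCF is pulled down with an antibody and sequenced, on wild-type B6CBAF1 embryos in a study of the CTCF sites of the Hoxd gene cluster. About 30 embryos aged E9.75 to E10 (embryonic days) gave the posterior trunk library, which held tailbud, presomitic mesoderm and some of the newest somites, largely without hindlimb buds. The brain library is telencephalon of 6 pooled E12.5 embryos, and the E12.5 distal and proximal forelimb libraries are data of an earlier study processed again. With 1 library per tissue there is no replicate check, and tissue, stage, preparation and sequencing depth cannot be told apart. Each library mixes cell types, so fewer bound cells and weaker binding per cell cannot be told apart either. Peak lists hold no expression values, so the tissue labels were not checked against marker genes.

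CTCF is a zinc finger protein that binds a long, partly conserved DNA motif. Together with the ring-shaped cohesin complex it marks the anchors of chromatin loops and the borders between neighbouring chromatin domains. A single bound motif usually gives a narrow ChIP-seq peak with 1 summit, the position of highest read pileup. In the deposited lists a peak with several summits occupies several rows with the same interval, so the rows per interval count the summits.

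The sequences that help to place the broad regions are promoters lying wholly inside them, since no genome sequence was used here. RefSeq promoters (GRCm38.p6, 250 bases before to 50 bases after a listed start site) were searched on both strands for a 12-letter form of the central CTCF motif (CCA, any 2 bases, AG, any 2 bases, GGC) and for the shorter CCCTC. The next lines give the 250 upstream bases, 5′ to 3′ in the direction of the gene, with matches to the 12-letter form or its reverse complement in capitals. The first 6 hold every match that lay within 20 bases of a trunk summit (1 promoter is shown where several share a match, as Gm46771 does with Gzf1), and the last is shown because its region was broad in all 4 tissues although these bases hold no match.
Cryz: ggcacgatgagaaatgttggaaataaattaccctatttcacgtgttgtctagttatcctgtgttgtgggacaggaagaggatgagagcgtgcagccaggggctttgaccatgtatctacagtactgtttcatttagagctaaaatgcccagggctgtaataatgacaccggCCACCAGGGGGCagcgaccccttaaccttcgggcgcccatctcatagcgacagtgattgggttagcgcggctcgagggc
Kif1b: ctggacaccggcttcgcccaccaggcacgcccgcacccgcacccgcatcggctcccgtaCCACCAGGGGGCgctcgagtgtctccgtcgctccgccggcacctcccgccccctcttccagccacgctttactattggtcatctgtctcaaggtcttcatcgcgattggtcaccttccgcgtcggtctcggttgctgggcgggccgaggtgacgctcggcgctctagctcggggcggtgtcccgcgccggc
Nectin2: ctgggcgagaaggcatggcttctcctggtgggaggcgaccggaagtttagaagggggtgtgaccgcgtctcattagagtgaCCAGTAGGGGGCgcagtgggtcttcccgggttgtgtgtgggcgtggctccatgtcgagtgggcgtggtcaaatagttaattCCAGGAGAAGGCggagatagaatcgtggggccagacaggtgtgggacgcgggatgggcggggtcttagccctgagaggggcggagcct
Gzf1: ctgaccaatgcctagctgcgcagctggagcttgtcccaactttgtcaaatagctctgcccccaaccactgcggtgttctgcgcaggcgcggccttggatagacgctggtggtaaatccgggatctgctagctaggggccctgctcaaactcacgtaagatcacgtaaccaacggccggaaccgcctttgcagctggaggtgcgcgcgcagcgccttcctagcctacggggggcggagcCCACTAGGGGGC
Tex48: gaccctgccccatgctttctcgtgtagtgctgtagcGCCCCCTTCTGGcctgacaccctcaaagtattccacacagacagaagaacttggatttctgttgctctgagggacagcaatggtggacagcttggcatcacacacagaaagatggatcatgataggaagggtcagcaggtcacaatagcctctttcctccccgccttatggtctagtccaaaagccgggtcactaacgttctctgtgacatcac
Gm46521: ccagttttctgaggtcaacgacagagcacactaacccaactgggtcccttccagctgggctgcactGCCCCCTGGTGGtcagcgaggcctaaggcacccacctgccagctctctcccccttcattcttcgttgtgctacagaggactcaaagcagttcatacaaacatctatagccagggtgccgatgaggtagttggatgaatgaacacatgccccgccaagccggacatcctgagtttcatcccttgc
Wif1: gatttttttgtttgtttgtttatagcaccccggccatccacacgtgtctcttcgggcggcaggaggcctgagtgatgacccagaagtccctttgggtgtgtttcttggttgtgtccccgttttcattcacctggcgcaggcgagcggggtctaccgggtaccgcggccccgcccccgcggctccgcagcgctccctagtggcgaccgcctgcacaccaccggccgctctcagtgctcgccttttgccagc

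These stretches lie at chr3:154596461-154596710 (plus strand) for Cryz, a quinone reductase, chr4:149307734-149307983 (minus strand) for Kif1b, a kinesin motor, chr7:19749574-19749823 (minus strand) for Nectin2, a cell adhesion receptor, and chr2:148680870-148681119 (plus strand) for Gzf1, a zinc finger transcription factor. Tex48 lies at chr4:63622434-63622683 (minus strand). Gm46521 lies at chr15:80225351-80225600 (plus strand) and Wif1, a secreted inhibitor of Wnt signalling, at chr10:121033754-121034003 (plus strand). The match lay 7 bases from the nearest trunk summit at Cryz, 10 bases at Kif1b, 9 bases at Nectin2, 16 bases at Gzf1, 10 bases at Tex48 and 18 bases at Gm46521. Nectin2 holds another match 90 bases from the nearest trunk summit. Of 92 promoters wholly inside broad regions, 12 (13.0%) held the 12-letter form, against 233 of 1667 (14.0%) inside union regions that were not broad and 776 of all 31396 listed promoters (2.47%). The share inside broad regions was therefore close to that of other bound promoters. These counts are of listed promoter entries, and overlapping entries can hold the same match, as those of Kif1b and those of Tex48 do. CCCTC was found in 84.8% of the promoters inside broad regions, in 76.6% of those inside other union regions and in 66.3% of all promoters.

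The peaks at the first 6 promoters shown differed in form between tissues. At Kif1b (chr4:149307644-149308658) the peak spanned 1015 bases in trunk, 908 in brain, 910 in distal and 917 in proximal forelimb, so 1 interval lay just above the minimum and the others just below it. At Cryz (chr3:154596281-154597311) trunk had 1031 bases and brain 912, while the forelimb parts had 536 and 548. Gzf1 (chr2:148680842-148681893) had 1 peak of 1052 bases in trunk and of 813 in brain, and 2 peaks in each forelimb part, the wider of 431 and 522 bases. Tex48 (chr4:63621909-63622948) had a trunk peak of 1040 bases, 2 brain peaks, the wider of 436, and 1 peak of 368 and 406 bases in distal and proximal forelimb. Nectin2 (chr7:19749503-19750522) had 1 trunk peak of 1020 bases, and in each other tissue 2 peaks, the wider of which measured 451, 450 and 506 bases in brain, distal and proximal forelimb. The Gm46521 region (chr15:80225011-80226163) was broad in trunk, brain and proximal forelimb at 1152, 1074 and 1005 bases, and split into 2 peaks in distal forelimb.

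Nearly all of the breadth came from the trunk list. Trunk was broad at 752 regions, narrow at 10 and absent at 1. Brain was broad at 105 regions, narrow at 651 and absent at 7. Distal forelimb was broad at 55, narrow at 702 and absent at 6, and proximal forelimb was broad at 65, narrow at 691 and absent at 7. Peaks of at least 1000 bases made up 0.724% of the 103901 peaks in trunk, 0.147% of 72022 in brain, 0.0889% of 63005 in distal forelimb and 0.105% of 62082 in proximal forelimb. Over the 4 tissues, 626 regions (82.0%) were broad in trunk only, 126 (16.5%) in at least 2 tissues and 28 in all 4. Only 11 regions were not broad in trunk, and 0 were broad in both forelimb parts alone.

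**Figure D1:**
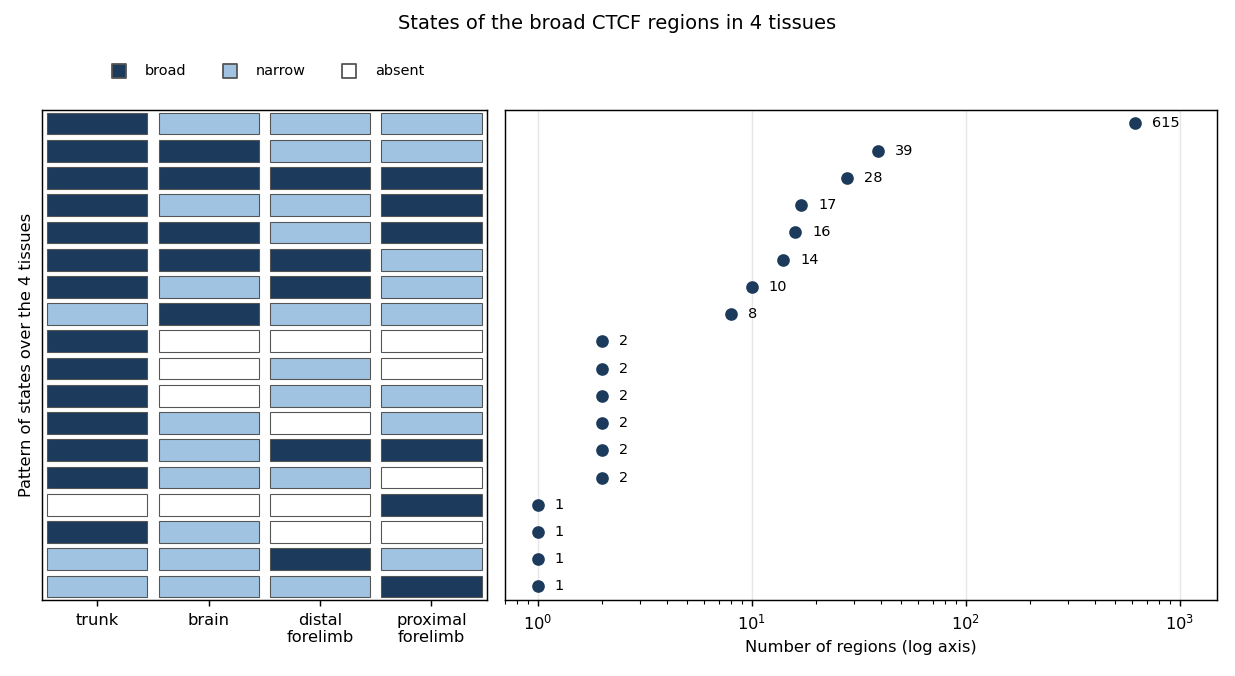
Combinations of broad (dark), narrow (light) and absent (white) states over the 4 tissues, with the number of regions of each on a log axis. The combination broad in trunk and narrow in the other 3 tissues holds 615 of the 763 regions, and the one broad in all 4 holds 28.

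Breadth and presence of a peak are separate matters at these regions. A peak of some width was called in all 4 tissues at 751 of the 763 regions (98.4%), against 42.3% of all union regions. The broad peaks are also strong: the median trunk peak at these regions had a rank percentile of 87.1 in its list (100 being the strongest by p-value). Of all trunk peaks at or above percentile 75, 25964 of 25976 (100%) lay in regions called in all 4 tissues. The share at the broad regions was therefore no higher than that of other strong trunk peaks.

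The trunk list was wider than the others as a whole, and this stands beside every count of trunk breadth. Median width over all peaks was 379 bases in trunk, 360.5 in brain and 363 in each forelimb part. Among the strongest 10% of each list the medians were 691, 547, 528 and 532 bases, and among its peaks with 1 summit 685, 544, 526 and 530 bases. The lowest local background, recovered from the deposited fold and p-value and taken as a measure of depth, was 9.34 in trunk, 8.53 in brain, 4.23 in distal and 4.58 in proximal forelimb. Trunk was thus 2.21 times and brain 2.02 times as deep as distal forelimb by this measure. Brain was nearly as deep as trunk and had 105 broad regions against 752. The part of depth or library preparation in the widths was not tested.

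**Figure D2:**
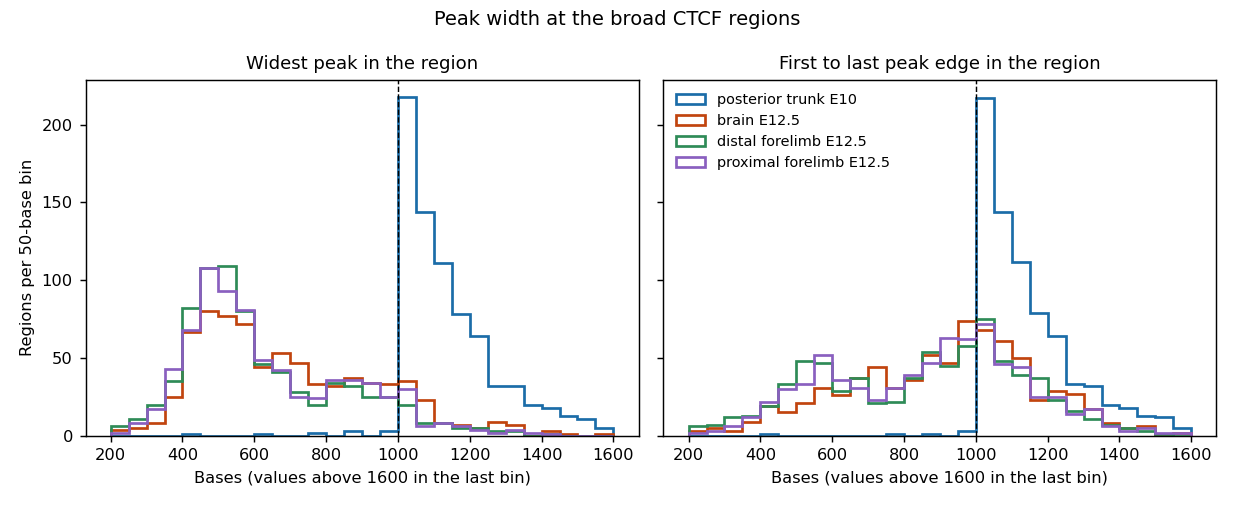
Left, width of the widest peak at each broad region in each tissue, in 50-base bins. Right, distance from the first to the last peak edge in the region. The dashed line is the 1000-base minimum, so the step in the trunk line there is set by the choice of regions, while brain, distal and proximal forelimb have medians of 644.5, 558 and 569 bases on the left and spread across the line on the right.

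Fold, the authors' enrichment of pileup over local background at the strongest summit, had a different order from width. Over the 751 regions called everywhere, the median fold was 10.4 in trunk, 11.3 in brain, 12.7 in distal and 12.3 in proximal forelimb. Trunk had the lowest fold of the 4 tissues at 528 of them (70.3%), against 30.4% of the 50167 union regions called everywhere. The tissue with the widest peaks thus most often had the lowest fold at the same region. The broad regions are strong in trunk, and the share was not measured over other regions of like strength. Low trunk fold is therefore not read as particular to broad regions. Median local background at the broad regions was 26.8 in trunk, 19.7 in brain, 11.5 in distal and 11.7 in proximal forelimb, and median pileup was 313, 256, 168 and 166. Over whole lists the highest pileup was similar, at 399, 393, 368 and 365, although trunk was 2.21 times as deep as distal forelimb. Pileup at the broad regions thus lay nearest to the top of its list in trunk. Whether an upper limit on pileup lowered the trunk fold at these regions was not tested.

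Most broad peaks held 2 summits. In trunk, 108 of the 752 broad peaks had 1 summit, 548 had 2, 85 had 3 and 11 had at least 4. All 106 brain and 56 distal broad peaks had at least 2 summits, and so did 64 of the 65 proximal ones. At 655 of the 763 regions (85.8%) a broad peak held at least 2 summits, whereas 3.29%, 1.79%, 1.41% and 1.38% of all trunk, brain, distal and proximal peaks did. A wide interval has room for more summits, so these shares are tied to the width that chose the regions. Neighbouring summits of a broad peak lay a median of 548.5 bases apart in trunk, 539 in brain, 528 in distal and 521.5 in proximal forelimb. Over all peaks with several summits, broad ones included, the medians were 353, 346.5, 344 and 352.5 bases. Width bounds the spacing too, so nothing is read from the longer spacing of the broad peaks.

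The summits of a pair were often unequal. In trunk peaks with 2 summits the weaker summit had a median of 62.3% of the fold of the stronger, with 31.9% of the 548 peaks above 80% and 38.5% below 50%. The medians were 78.7% over 74 brain peaks, 77.7% over 38 distal and 64.6% over 46 proximal peaks. Over all broad peaks, those with 1 summit included, the first and last summits lay a median of 273 bases from the start and end of the interval in trunk. This flank was 233 bases in brain, 214.5 in distal and 227.5 in proximal forelimb. Spacing differed little between tissues. The flanks were longest in trunk, but 108 trunk peaks had 1 summit, against 0 in brain, 0 in distal and 1 in proximal forelimb. Flanks of peaks with several summits alone were not measured.

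At the 626 regions broad in trunk only, the other tissues showed 3 forms, apart from 6 regions absent in brain, 5 in distal and 7 in proximal forelimb. In the first form the region held at least 2 separate peaks, which was seen at 41.1% of regions in brain, 40.3% in distal and 40.4% in proximal forelimb. In the second form it held 1 shorter peak with several summits, at 128, 100 and 111 regions. In the third form it held 1 peak with 1 summit, at 235, 269 and 255 regions. The form was the same in the other 3 tissues at 201 split regions (32.1%), 66 regions with 1 peak of several summits and 194 regions with 1 summit (31.0%). A peak was absent in all 3 at 2 regions, and the form differed between them at 163 (26.0%).

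By the choice of these 626 regions no single peak of another tissue reached 1000 bases, so the extent over all peaks of a region was measured as well. From the first to the last peak edge the other tissues reached 1000 bases at 181 (28.9%), 172 (27.5%) and 158 (25.2%) of the 626 regions in brain, distal and proximal forelimb. At most regions the extent was thus shorter than 1000 bases. Where a region was split, the smallest gap between its peaks had a median of 191 bases in brain, 233.5 in distal and 219 in proximal forelimb. The smallest such gap was 50, 49 and 53 bases, and over whole lists the smallest gap between neighbouring peaks was 49 or 50 bases in every tissue. Of the 1212 trunk summits at these regions, 82.3% had a brain summit within 100 bases, 79.0% a distal and 79.9% a proximal forelimb summit. The same shares over other strong trunk summits were not measured, so nothing particular to these regions is read from them. At the 456 of these regions with 2 trunk summits in 1 peak, both were matched in brain at 325, in distal at 302 and in proximal forelimb at 310.

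The widest regions broad in trunk only show the split form. At Gramd1b (chr9:40414615-40416553), which encodes a cholesterol transfer protein, trunk had 1 peak of 1939 bases with 4 summits. Each other tissue had 2 peaks there, of 801 and 398 bases in brain, 794 and 286 in distal and 839 and 330 in proximal forelimb. At Efna3 (chr3:89315600-89317239), an ephrin ligand of Eph receptors, the trunk peak of 1640 bases held 2 summits 1200 bases apart with a fold of 10.01 at the stronger. The same place held peaks of 661 and 511 bases in brain, 342 and 465 in distal and 403 and 449 in proximal forelimb, with folds of 12.7, 15.7 and 15.1 at their strongest summits. The weaker of the 2 peaks at Efna3 had folds of 6.41, 7.09 and 6.91. The trunk interval thus joined what the other lists gave as separate peaks, and at Efna3 their stronger peak had a higher fold than trunk and their weaker one a lower fold than the stronger trunk summit.

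Neighbours in this group had the same layout. The region 5.15 kb from Neurl1b (chr17:26451473-26453103), a ubiquitin ligase gene of the Neuralized family, had a trunk peak of 1631 bases with summits 983 bases apart. There the other tissues had peaks of 527 and 480, 448 and 514, and 515 and 410 bases. In Arfip1 (chr3:84542299-84543929) the trunk peak also spanned 1631 bases, with 3 summits, and the wider of 2 peaks measured 561, 534 and 558 bases elsewhere. At 2.58 kb from Slc45a1 (chr4:150625215-150626814), a sugar transporter gene, the trunk peak of 1600 bases had summits 905 bases apart, and the wider of 2 peaks measured 537, 509 and 482 bases.

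**Figure D3:**
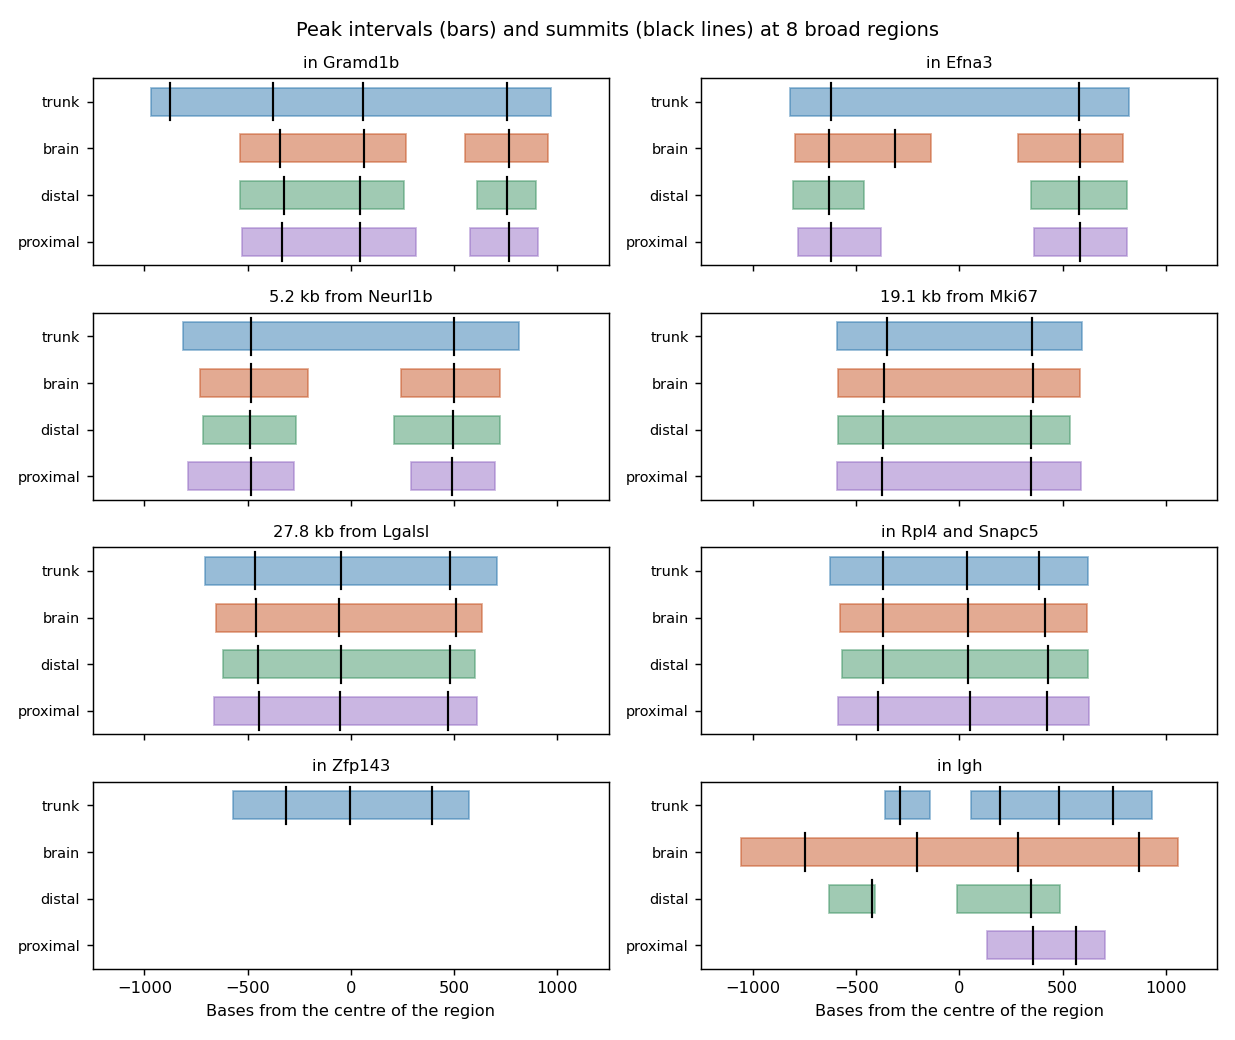
Peak intervals (bars) and summits (black lines) in the 4 tissues at 8 broad regions, in bases from the centre of the region. Gramd1b, Efna3 and the region near Neurl1b are joined in trunk and split elsewhere, the regions near Mki67 and Lgalsl and in Rpl4 and Snapc5 keep their layout in all 4 tissues, Zfp143 has a trunk peak only, and Igh is widest in brain.

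The intervals with most summits differed in which tissues were broad. At 9.99 kb from Gm39469 (chr9:124256244-124257889) both had 4 summits, in peaks of 1571 and 1646 bases, and each forelimb part had 2 peaks, the wider of 740 and 799 bases. In Tmem267 (chr13:119609560-119611351), a membrane protein gene, brain had 1 peak of 1784 bases with 4 summits, trunk 1 of 1320 beside a shorter one, and proximal forelimb 1 of 1128. Fold at the strongest summit in Tmem267 was 3.25 in trunk, 2.67 in brain, 2.68 in distal and 2.7 in proximal forelimb. In the T cell receptor alpha locus Tcra (chr14:53636792-53638320) the trunk peak of 1529 bases had 4 summits, brain had 2 peaks of 610 and 200 bases, and the forelimb parts had 1 peak each, of 497 and 602 bases, with 1 summit. The first of these regions therefore had a higher fold than the second, where every tissue had a fold below 4.

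Some trunk regions were cut into 3 peaks elsewhere. In Bcl2l1 (chr2:152830513-152832033), a gene of an anti-apoptotic protein, the trunk peak of 1521 bases had 3 summits with spacings of 486 and 571 bases. Brain had 3 peaks there, of 346, 362 and 438 bases, and distal forelimb 3 peaks, of 406, 418 and 454 bases. Proximal forelimb had 2, of which 1 spanned 943 bases with 2 summits. In Upk3b (chr5:136044873-136046412), a uroplakin gene, 1 trunk peak of 1540 bases faced 3 brain peaks of 358, 433 and 526 bases and 2 peaks in each forelimb part.

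A smaller group was wide around 1 summit. At 92 regions every tissue had exactly 1 peak with 1 summit, and all 92 were broad in trunk alone. Median width there was 1042 bases in trunk, 688.5 in brain, 595.5 in distal and 632 in proximal forelimb. Median fold was 12.1, 13.7, 15.7 and 14.9, and median pileup 315, 263.5, 174 and 183. For comparison, all peaks with 1 summit had median widths of 373, 357, 360 and 361 bases. These 92 regions were strong everywhere, with median rank percentiles of 91.5, 88.2, 87.4 and 88.3, and had the highest fold in the forelimb parts.

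The regions broad in all 4 tissues numbered 28, and 24 of these had no raised background as defined further down. Their median trunk width over those 24 was 1244.5 bases, against 1155 in brain, 1089.5 in distal and 1108.5 in proximal forelimb. At 8 of the 28 (28.6%) fold stayed below 6 in all 4 tissues, against 44 of all 763 (5.77%). Without regions of raised background this was 4 of 24 (16.7%) against 38 of 754 (5.04%). So the group joined strong, paired sites with intervals of low fold.

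Among the strong ones, the summit layout was repeated closely between tissues near Mki67 and Ankrd9. It was not so at every strong region, since the number of summits differed between tissues in Ksr1 and near Cldn4, described below. The region 19.1 kb from Mki67 (chr7:135735569-135736756), the gene of the proliferation marker Ki-67, measured 1187 bases in trunk, 1173 in brain, 1125 in distal and 1183 in proximal forelimb. Its 2 summits lay 700, 719, 716 and 722 bases apart, and fold was 10.3, 10.4, 13.9 and 11.5. At 12.4 kb from Ankrd9 (chr12:110991503-110992681) the widths were 1151, 1139, 1093 and 1106 bases and the spacings 672, 696, 704 and 694 bases. Over the 4 tissues the spacing thus ranged from 700 to 722 bases at the first region and from 672 to 704 bases at the second.

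Regions with 3 summits in every tissue were found near Lgalsl and Odf1 and in Rpl4. The region 27.8 kb from Lgalsl (chr11:20794155-20795567), a galectin-related gene, measured 1413, 1289, 1221 and 1274 bases, with spacings of 420 and 528 bases in trunk and 399 and 571 in brain. At 20.3 kb from Odf1 (chr15:38247062-38248288), which encodes a protein of the sperm tail, widths were 1227, 1169, 1147 and 1157 bases. The region in Rpl4 and Snapc5 (chr9:64178523-64179780), genes of a ribosomal protein and of a subunit of the small nuclear RNA activating complex, measured 1249, 1198, 1190 and 1218 bases. Its fold was 7.75, 8.68, 8.97 and 8.35, and its spacings were 407 and 345 bases in trunk, 412 and 372 in brain, 413 and 389 in distal and 444 and 374 in proximal forelimb. All 3 regions were widest in trunk.

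Further examples of regions broad in every tissue lay in or near genes of varied function. In Wif1 (chr10:121033085-121034229) the widths were 1145, 1041, 1029 and 1043 bases and the fold 7.12, 9.70, 12.1 and 11.4 in trunk, brain, distal and proximal forelimb. Near Gdf6, a ligand of the BMP family, at 18.2 kb (chr4:9824916-9826219), the widths were 1304, 1141, 1039 and 1048 bases. At 2.31 kb from Tfap2b (chr1:19205496-19206598), a transcription factor gene, they were 1098, 1038, 1072 and 1059 bases. In Ksr1 (chr11:79018945-79020322), a scaffold of the MAP kinase pathway, trunk had 1378 bases with 3 summits and the others 1262, 1182 and 1176 bases with 2. At 18.4 kb from Cldn4 (chr5:134965342-134966742), a tight junction gene, the widths were 1401, 1238, 1230 and 1111 bases with folds of 10.9, 13.9, 15.2 and 15.7. The peaks near Cldn4 had 3, 2, 3 and 2 summits.

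Other regions broad in all 4 tissues lay in or near further genes. One lay at chr1:26686867-26688328 in 4931408C20Rik, and had 1462, 1412, 1118 and 1382 bases and folds of 4.43, 4.51, 4.92 and 4.33. In Slc30a4 (chr2:122681152-122682498), a zinc transporter gene, the widths were 1240, 1255, 1228 and 1219 bases and the folds 4.04, 5.28, 5.36 and 4.5. At chr17:13590226-13591686, 125 kb from Tcte2, the widths were 1458, 1448, 1439 and 1390 bases and the folds 7.73, 7.78, 7.19 and 7.93. Widths in these 3 regions were close between tissues except in distal forelimb at the first.

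A raised local background marked 9 of the 763 regions (1.18%), where at least 1 summit had a background over 5 times the median of its list. Peaks past that bound made up 0.0520%, 0.0292%, 0.0698% and 0.0548% of the trunk, brain, distal and proximal lists. These are shares of single peaks in 1 list, whereas a region was marked by any summit in any tissue. The 2 kinds of share are therefore not directly comparable, and the share of all union regions was not measured. Of the 9 regions, 4 were broad in all 4 tissues and 4 in trunk only. The longest stable one lay in Rn18s-rs5, a ribosomal RNA related sequence, at chr17:39843033-39846379. It measured 3312, 3234, 3211 and 3323 bases with 5, 5, 6 and 6 summits, its fold was 2.36, 2.28, 2.39 and 2.48, and its background 166, 153, 126 and 124. A second interval beside it (chr17:39847503-39848808) measured 1300, 1296, 1300 and 1299 bases.

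The widest peak of all, at chr14:19415761-19419636 and 114 kb from Gm2244, was also in this group. It spanned 3867 bases with 8 summits in trunk. Brain had 2 peaks there, the wider of 2308 bases, and each forelimb part had 4, the widest of 1688 and 1683 bases. At chr2:98666145-98667318, 1034 kb from Lrrc4c, widths were 1109, 1087, 1173 and 1171 bases and folds 3.54, 3.58, 4.05 and 4.04. Of 2 such regions in Sfi1, a centrin-binding protein gene, that at chr11:3184315-3185653 was broad in trunk, brain and distal forelimb at 1287, 1333 and 1287 bases, with folds of 2.27 to 2.65 over the strongest summits of the 4 tissues. The other 4 were broad in trunk only and had trunk folds from 1.88 to 5.53: a second region in Sfi1, 1 in Tjp3, 1 at 32.5 kb from Tmem121 and 1 at 7.76 kb from Cebpb. The part of repeated sequence or copy number in these intervals was not tested, since no genome sequence was used here.

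**Figure D4:**
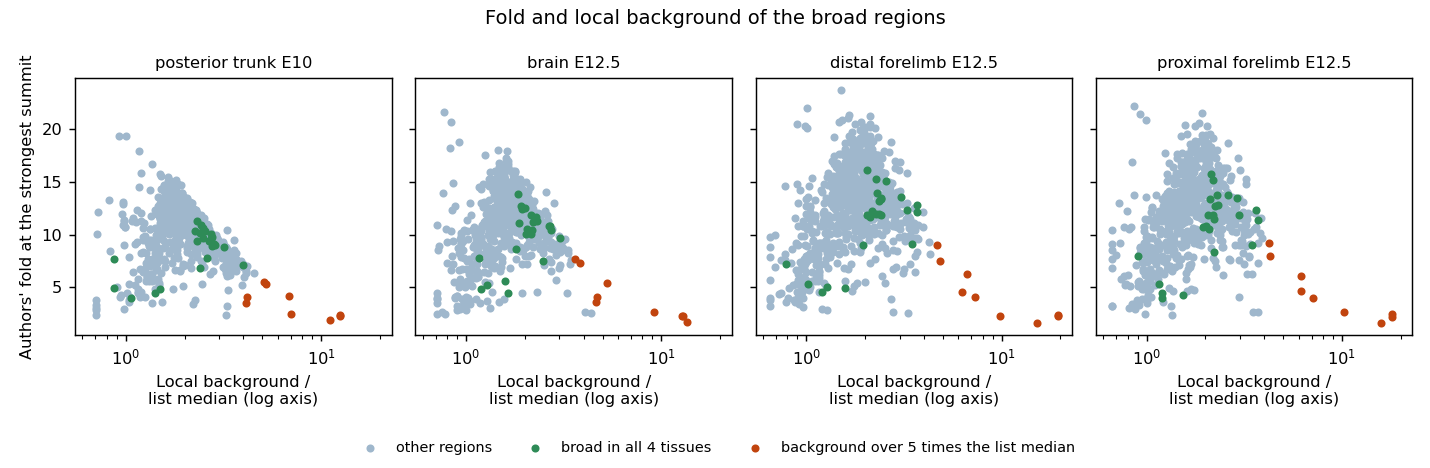
Fold at the strongest summit (vertical) against local background divided by the list's median (horizontal, log axis) for the broad regions in each tissue. Regions broad in all 4 tissues are green and the 9 with a background over 5 times the median at any summit in any tissue are orange, most of which lie at the far right with low fold.

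The 11 regions not broad in trunk comprised 8 broad in brain only, 1 in distal forelimb only and 2 in proximal forelimb only. The brain peak in the immunoglobulin heavy chain locus Igh (chr12:113704628-113706747) spanned 2120 bases with 4 summits and a fold of 4.07. Trunk had 2 peaks there, of 880 and 217 bases, distal forelimb 2 of 503 and 223, and proximal forelimb 1 of 570 bases. At 1.29 kb from Zfp978 (chr4:147122261-147123590), a zinc finger gene, brain had 1330 bases at a fold of 3.73 and the widest peak elsewhere had 761, 258 and 443 bases. At 14.9 kb from Tas2r117 (chr6:132818746-132819926), a bitter taste receptor gene, brain had 1181 bases and the others 439, 256 and 367 bases. These 3 were far wider in brain, at folds below 5.

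The others of the 11 lay nearer to the width minimum. In Dnajc17 (chr2:119188859-119189885), a gene of the DnaJ chaperone family, widths were 996 bases in trunk, 1027 in brain, 902 in distal and 903 in proximal forelimb. In Vamp2 (chr11:69092218-69093226), a synaptic vesicle gene, they were 986, 1009, 921 and 946 bases. In Tmem200c (chr17:68841049-68842115) the brain peak of 1067 bases with 2 summits stood beside a trunk peak of 793 bases with 1. In Gsto1 (chr19:47854184-47855329), a glutathione transferase gene, the distal peak had 1146 bases and 3 summits, the trunk 2 peaks of 856 and 361 bases. In Tns4 (chr11:99065411-99066452), a tensin gene, the proximal peak of 1042 bases joined 2 summits 649 bases apart that every other tissue gave as separate peaks.

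A peak was missing in at least 1 tissue at 12 regions (1.57%), against 57.7% of union regions. In 11 of them the broad peak ranked below percentile 60 of its own list, against a median of 87.1 for trunk peaks at all broad regions. Most were thus weaker than the other broad regions, though not all were weak within their list. Trunk alone had a peak at 2 regions. In Zfp143 (chr7:110060729-110061869), the gene of a zinc finger factor found at many promoters, the trunk peak had 1141 bases, 3 summits, a fold of 3.5, and a pileup of 65 over a background of 18.1. In Cct6b (chr11:82762909-82763990), a chaperonin subunit gene, it had 1082 bases, 2 summits and a fold of 3.63. Absent here means that no peak was called at the depth of the other libraries, which was lower than in trunk. Proximal forelimb alone had a peak in Gm50595 (chr2:75529062-75530097), with 1036 bases, 3 summits and a fold of 3.21.

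The remaining 9 had a trunk peak and lacked one in 1 or 2 other tissues. In Ash2l (chr8:25840833-25841905), a subunit of histone methyltransferase complexes, trunk had 1073 bases at a fold of 4.46 and brain 535 bases at 2.52, with no forelimb peak. In Nccrp1 (chr7:28545779-28546949) trunk had 1171 bases at 5.19 and distal forelimb 225 bases at 3.6. In Ror2 (chr13:53163749-53164785), a Wnt receptor, trunk had 1037 bases at 7.91 and the forelimb parts 339 and 345 bases at 7.62 and 5.78, and brain had no peak. This region was the strongest of the 12, with a rank percentile of 64.8 in trunk. At 7.15 kb from Piezo1 (chr8:122558482-122559598), a mechanically gated channel, trunk had 1117 bases at a fold of 6.004, each forelimb part 2 peaks, and brain none. Sites in Chd1, Nmt2 and Gm31160, 1.39 kb from Gm6370 and 27.9 kb from Skor1 were the others, with trunk folds between 2.90 and 4.13.

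The broad regions lay near gene ends more often than other union regions, also when measured from their centres. A RefSeq span of a protein-coding gene shared a base with 435 of them (57.01%), against 52.0% of union regions and 53.9% of those called in all 4 tissues. From the centre of each region these shares were 51.4%, 50.6% and 51.6%, so the small excess was not seen without the width. The nearest end of such a span was within 1 kb of 199 regions (26.1%), against 10.4% of union regions and 12.6% of those called in all 4 tissues. Measured from the centre, the shares for gene ends were 20.4% for the broad regions, 9.21% for union regions, 10.8% for those called in all 4 tissues and 10.2% for trunk peaks at or above percentile 75. Over the 740 regions outside chromosome 18, for which no start sites were used, 159 (21.5%) lay within 1 kb of a listed start site, against 9.11% of union regions and 10.5% of those called in all 4 tissues. A start site lay inside 93 of the 740 (12.6%). The matching share of union regions was not measured, and a wide interval has more room to hold a start site. Start-site shares were not measured from the centres either, so the part of width in them was not tested. Only 43 broad regions (5.64%) lay over 50 kb from a coding gene, against 20.2% of union regions. From the centre these shares were 5.77% and 20.2%, beside 14.6% of regions called in all 4 tissues and 13.1% of trunk peaks at or above percentile 75. Exons and introns could not be told apart from the gene spans.

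Of the 28 regions broad in all 4 tissues, 5 (17.9%) lay within 1 kb of a gene end and 9 (32.1%) shared a base with a coding span. Without the 4 of raised background the shares were 5 of 24 (20.8%) and 9 of 24 (37.5%), and their difference from the other broad regions was not tested. Another union region lay within 10 kb of 565 broad regions (74.0%), against 70.1% of union regions. By chromosome, broad regions made up from 3.64 per 1000 union regions on chromosome 12 to 11.1 per 1000 on chromosome 19, and chromosome 2 held the most, 80. A microRNA hairpin lay in 1 of them, Mir3086 on chromosome 19, in a region broad in trunk and brain.

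Gene lists were compared by the number of broad regions within 50 kb of their members, beside the 0.643% of all union regions that were broad. The Hox and Evx genes, which pattern the body axis and limbs, had 0 broad regions among 124 union regions, and the clustered protocadherins, cell surface genes with many CTCF-bound promoters, had 0 among 86. Imprinted genes, expressed from 1 parental copy, had 4 of 302 (1.32%), limb and trunk regulators 3 of 474 (0.633%) and telencephalon regulators 3 of 200 (1.5%). Genes of CTCF, cohesin and their partners had 2 of 195, ribosomal proteins 7 of 854, histones 2 of 201 and keratins 3 of 125. Zinc finger genes had 27 of 2789 (0.968%), olfactory receptors 4 of 874 (0.458%) and vomeronasal receptors 2 of 560 (0.357%). No list had more than 27 broad regions, and differences between the lists were not tested.

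Of all broad regions, 82.0% were broad in trunk alone, and so were most of those near list members. Exceptions among them were the Vamp2 region above, 25.7 kb from the somite clock gene Hes7 and broad in brain only, and 2 of the 3 keratin regions. The region 16.8 kb from Krt9 (chr11:100168842-100169988) was broad in trunk and proximal forelimb, and that 11.7 kb from Krt42 (chr11:100281613-100283064) in trunk, brain and proximal forelimb. In Peg3 (chr7:6727062-6728146), an imprinted zinc finger gene, the widths were 1085, 799, 802 and 736 bases, and in Trappc9 (chr15:73044102-73045106) 1005, 682, 580 and 684 bases. At 44.8 kb from Cdkn1c (chr7:143505867-143507148), an imprinted cell cycle inhibitor, a trunk peak of 1282 bases faced 2 peaks in each other tissue, the wider of 524, 474 and 487 bases. At 2.87 kb from Smc3 (chr19:53648703-53649732), the gene of a cohesin subunit, 1 trunk peak of 1030 bases again faced 2 peaks in each other tissue, with folds of 10.8 in trunk and 14.0, 16.6 and 17.6 in brain, distal and proximal forelimb. The broad trunk peak at Smc3 thus had the lowest fold of the 4 tissues.

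None of the 3 regions near telencephalon regulators was broad in brain, where 13.8% of all broad regions were. With only 3 regions nothing is read from this. At 6.33 kb from Neurog2 (chr3:127625181-127626399), a proneural transcription factor gene, trunk had 1219 bases, and brain, distal and proximal forelimb 2 peaks each with a wider one of 506, 570 and 523 bases. At 19.5 kb from Six3 (chr17:85645688-85646727), a forebrain homeobox gene, trunk had 1040 bases and the wider of 2 peaks elsewhere 499, 532 and 435 bases. At 32.6 kb from Dlx5 (chr6:6914707-6915751), widths were 1045, 744, 755 and 761 bases. Near Lfng (3.43 kb, chr5:140618974-140620147), a modifier of Notch receptors in somite formation, the peak was broad in trunk and brain at 1174 and 1087 bases and measured 770 and 984 bases in distal and proximal forelimb. At 38.7 kb from Meis2 (chr2:116106202-116107313), a homeobox gene of the proximal limb, trunk had 1112 bases, and each other tissue 2 peaks with a wider one of 388, 291 and 371 bases.

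Because the lists differ in width, the 56 widest peaks of each list were also compared, 56 being the number of distal forelimb peaks past the minimum. The narrowest of the 56 measured 1386 bases in trunk, 1087 in brain, 1007 in distal and 1012 in proximal forelimb. Of the 56 widest trunk peaks, 15 shared a base with the 56 widest of brain, 11 with those of distal and 9 with those of proximal forelimb. Of the 56 widest brain peaks, 28 shared a base with those of distal and 26 with those of proximal forelimb, and 27 of the 56 distal peaks did with those of proximal forelimb. The widest trunk peaks were thus shared less often with the other tissues than those tissues shared theirs among themselves, a difference that has no replicate check.

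**Figure D5:**
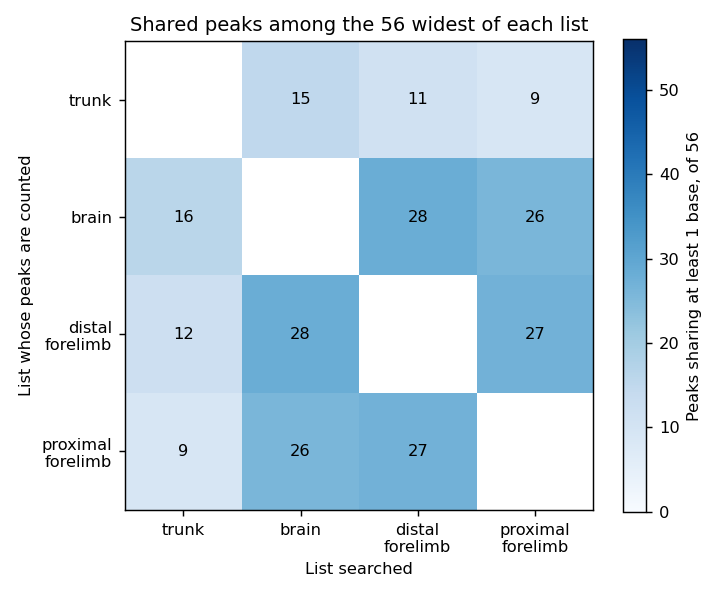
Number of the 56 widest peaks of one list (row) that share at least 1 base with any of the 56 widest of another (column). Trunk rows and columns hold 9 to 16, and pairs among brain, distal and proximal forelimb hold 26 to 28.

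Many peaks lie close to the width minimum on both sides. In trunk, 341 peaks lay in the 50 bases below the minimum and 218 in the 50 bases from it upwards. The counts were 41 and 35 in brain, 28 and 21 in distal and 36 and 30 in proximal forelimb. The 5 trunk peaks just inside each measured 1000 bases, had 2 summits and folds of 7.52 to 14.2. The 5 just outside each measured 999 bases, had 1 or 2 summits and folds of 4.29 to 12.8. The narrowest brain, distal and proximal peaks inside the minimum had 1001, 1007 and 1000 bases, and the widest outside had 998, 999 and 998.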

How the data were processed

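The 4 CTCF ChIP-seq peak lists were analysed as deposited. Per the submitters' processing notes the authors worked on mm10 with MACS2 2.1.1.20160309 (peak calling tool), Bowtie2 2.3.5 (aligner), cutadapt 1.16 (trimming tool) and SAMtools 1.9. The sources used here give neither their options nor a control library. The deposited columns hold a score, the fold as a ratio of pileup to local background at the summit, −log10 p-values and q-values, and the summit offset. The lists have no header line, so these units follow the narrowPeak layout and were checked on the values. Pileup and background were recovered from the deposited fold and −log10 p as whole reads with a pseudocount of 1, assuming a Poisson tail; the largest error in −log10 p was 0.00034. Rows of 1 interval were collapsed, widths were taken as end minus start, and rank percentiles follow the deposited −log10 p within a list. Distances are to RefSeq gene spans and start sites (GRCm38.p6). Tables were handled with pandas 2.3.3, numpy 2.4.6 and scipy 1.17.1 under Python 3.11.15, and drawn with matplotlib 3.10.9.

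With 1 library per tissue no test was run, and depth is known only through the lowest background. No filter on low values was applied, so all 763 regions enter. On simulated lists, 100% of 5000 pileups and of 1511 regions and their states were recovered. That was a check of the code alone. Whether the assumed pseudocount and Poisson tail hold for the deposited lists was not tested by it. Regions named in the text are those broad in all 4 tissues (15 with the largest smallest width), the 10 widest, the 10 with most summits, up to 6 per tissue broad there alone, those not broad in trunk, 10 of those absent somewhere, the 5 most split and those near listed genes; regions of raised background, promoter regions and the remaining ones were added after their values were seen. The regions and gene lists were chosen with earlier results of these data known. Of the listed imprinted genes 33 of 34 and of the CTCF partners 17 of 18 matched a RefSeq symbol.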

Additional observations from a re-analysis of the deposited data

Results flagged for a closer look

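Peaks of at least 1000 bases were also present on sequences outside chromosomes 1 to 19, which the regions above leave out. The X chromosome held 7 such peaks in trunk, the widest of 1269 bases with 3 summits, against 1 in brain, 2 in distal forelimb and 1 in the proximal part. On unplaced or unlocalised sequence there were 6 in trunk among 103 peaks, 6 in brain among 111, 4 in distal forelimb among 72 and 4 in proximal forelimb among 72, the widest measuring 2168, 2099, 1967 and 2085 bases. The mitochondrial sequence held 2 in every list.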

How the results depend on the processing

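The count of 763 regions became 4301 with a minimum of 800 bases, 205 with 1200 bases and 144 when each list gave the same number of widest peaks, and 138 to 762 with 1 library left out, the lowest without trunk. Regions broad in all 4 tissues went from 28 to 193, 8 and 6 under these settings and to 28 to 44 over the remaining tissues with 1 library left out. Regions broad in trunk only went from 626 to 3637, 168 and 37, and to 636 to 665. Regions with a peak in all 4 tissues went from 751 to 4190, 203 and 143, and to 137 to 752. The share with at least 2 summits went from 85.85% to 38.48%, 99.02% and 99.31%, and to 85.7% to 99.28%. The share within 1 kb of a gene end went from 26.08% to 18.88% at 800 bases, 21.53% for the widest peaks, 45.22% within 5 kb, 20.45% from the centre of the region, and 21.74% to 26.23% with 1 library left out. Leaving out brain, distal or proximal forelimb, and measuring from the centre, were chosen after seeing the data. A −log10 q of at least 5, 200 shared bases, lists of equal length, chromosomes X and Y, and removal of raised background (754 regions, 24 broad in all 4) moved no count by over 1.5 times. No paired analysis was possible because only 1 library per tissue was analysed. Depth, stage and library preparation differ with tissue, and the shallower forelimb lists limit what an absent call can show.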
